A study of Mus musculus with 90 samples.

Results

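The 9 genes described here are interferon-stimulated genes, whose transcription rises in cells that receive an interferon signal. They were taken by name, as Isg15 (Entrez Gene 100038882), Usp18 (24110), Irf7 (54123), Ifit1 (15957), Ifit3 (15959), Oasl2 (23962), Rsad2 (58185), Cmpk2 (22169) and Ifi44 (99899), and are 9 of the 20414 genes in the deposited expression table. RNA was sequenced from 15 tissues of female C57BL/6 mice (C57BL/6J in the methods of the study) in estrus and in diestrus. The study told the phases apart by vaginal cytology and also measured serum estrogen and progesterone as an aid. Each tissue has 3 libraries per phase, so that 30 groups give 90 libraries. The labels give the age of the mice as 10 weeks, the methods of the study a younger age, and the mice carried no stated transgene, deletion or treatment. The study assigned 3 mice to each phase and dissected all tissues from them, but the labels do not say that one replicate number marks one mouse. All levels below are FPKM, which scales the fragments of a gene by transcript length and by the mapped fragments of the library, and all fold changes are on the log2(FPKM + 1) scale, estrus minus diestrus.

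Depth, as the reads behind the FPKM scale of a library, was approximated from the steps between low values. It came to 8.47M to 17.6M in 89 libraries, with a median of 15.2M reads. The methods of the study give a higher number of sequenced reads per sample. The remaining library, BAT estrus replicate 3, came to about 0.0752M reads and listed 12048 genes at 0. In it 7 of the 9 genes were at 0, whereas none was at 0 in any of the other 89 libraries, so phase differences in BAT (brown adipose tissue) are given with and without it. Of 46 markers of tissue identity, 43 had their highest mean in the tissue they mark, and the other 3 were the smooth muscle genes of vein, which were higher in aorta. The libraries are whole tissues, in which fewer cells of a type and less RNA per cell cannot be told apart.

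Interferons are secreted proteins that cells release after sensing viral or misplaced nucleic acid. Type I interferons, such as interferon beta, act through the receptor Ifnar1 and Ifnar2, and type III interferons, the lambdas, act through Ifnlr1 and Il10rb, mainly on epithelium. Both receptors activate transcription factors that bind a short DNA element, the interferon-stimulated response element, near the start of their target genes. Many of the targets have a low basal level in healthy tissue.

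Promoters of 8 of the 9 genes were found in the RefSeq table for GRCm38.p6, which gives 250 bases before the transcription start and 50 after it, and Usp18 had no entry there. They lie at chr4:156200769-156201068 for Isg15 (minus strand), chr7:141266375-141266674 for Irf7 (minus strand), chr19:34640639-34640938 for Ifit1 (plus strand), chr19:34583279-34583578 for Ifit3 (plus strand), chr5:114896684-114896983 for Oasl2 (plus strand), chr12:26456403-26456702 for Rsad2 (minus strand), chr12:26468965-26469264 for Cmpk2 (plus strand) and chr3:151749861-151750160 for Ifi44 (minus strand). Ifit1 and Ifit3 start 57.4 kb apart on the same strand, and Rsad2 and Cmpk2 start 12.8 kb apart on opposite strands. The core of the response element was searched as GAAANNGAAA on both strands. It was present in 4 of the 8 promoters, against 1131 of all 32851 promoters of that length in the table, or 3.44%. The promoters of Isg15, Ifit1 and Ifit3 held more than 1 match, as did 0.225% of all promoters. The 4 promoters with a match are shown because they place the element relative to the start, each 5′ to 3′ on the strand of the gene, with the matched letters in capitals.
Isg15: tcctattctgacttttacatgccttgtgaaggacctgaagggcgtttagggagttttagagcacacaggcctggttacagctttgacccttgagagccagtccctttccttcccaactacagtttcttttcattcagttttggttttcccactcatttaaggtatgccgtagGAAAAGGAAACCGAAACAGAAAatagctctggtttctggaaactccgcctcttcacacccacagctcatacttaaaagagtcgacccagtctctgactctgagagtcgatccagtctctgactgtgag
Ifit1: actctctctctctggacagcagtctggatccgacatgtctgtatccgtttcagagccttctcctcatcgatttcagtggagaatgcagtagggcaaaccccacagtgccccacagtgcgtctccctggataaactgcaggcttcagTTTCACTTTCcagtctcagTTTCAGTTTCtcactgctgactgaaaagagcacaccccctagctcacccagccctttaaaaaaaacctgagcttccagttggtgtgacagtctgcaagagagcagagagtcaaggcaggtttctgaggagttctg
Ifit3: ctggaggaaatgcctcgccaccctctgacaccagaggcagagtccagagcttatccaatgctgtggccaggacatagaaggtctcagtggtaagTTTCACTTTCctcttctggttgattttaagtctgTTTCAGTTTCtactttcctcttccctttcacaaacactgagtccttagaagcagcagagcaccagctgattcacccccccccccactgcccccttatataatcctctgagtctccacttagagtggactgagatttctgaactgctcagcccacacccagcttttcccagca
Rsad2: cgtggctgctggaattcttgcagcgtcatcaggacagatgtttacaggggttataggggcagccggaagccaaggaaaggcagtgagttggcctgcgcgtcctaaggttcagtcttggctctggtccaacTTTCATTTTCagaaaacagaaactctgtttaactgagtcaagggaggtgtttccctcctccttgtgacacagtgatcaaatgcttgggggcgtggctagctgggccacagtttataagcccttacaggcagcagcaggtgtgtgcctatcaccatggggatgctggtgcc
In Isg15 the matches begin 78, 72 and 66 bases before the start and overlap, so that the capitals form a single run read on the gene's own strand. In Ifit1 the matches begin 104 and 85 bases before the start, in Ifit3 156 and 122 bases, and in Rsad2 120 bases, all of them read on the opposite strand. The promoters of Irf7, Oasl2, Cmpk2 and Ifi44 held no match, which says only that these letters are not in this window. The element of interferon gamma, searched as TTCNNNGAA, was in 0 of the 8 promoters and in 8.3% of all promoters. Among the 31 other listed type I interferon-stimulated genes that have a promoter in the table, 12 held GAAANNGAAA. The gene lists of the pathway were written with earlier results of these data known. Of the other lists of the pathway, 10 of 16 promoters (62.5%) of the interferon-gamma response held it, 3 of 7 of the sensors and adaptors, 4 of 11 of the ligands and 1 of 10 of the receptors and transducers.

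All 9 genes had their highest mean level in stomach. The mean over the 9 genes, as log2(FPKM + 1), was 7.06 ± 0.66 (SD over 6 libraries) in stomach, 5.46 ± 0.55 in duodenum, 4.65 ± 0.44 in spleen, 4.18 ± 0.71 in uterus (labelled womb) and 4.03 ± 0.61 in vein. It lay between 3.15 and 3.42 in ovary, kidney, white adipose tissue (WAT), heart, liver and aorta. The lowest values were 2.5 ± 1.04 in BAT, 1.95 ± 0.18 in hypothalamus, 1.75 ± 0.39 in muscle and 1.52 ± 0.15 in cerebrum. In BAT the shallow library stood at 0.59 and the other libraries at 2.46 to 3.63. Cerebrum had the lowest mean for 8 genes, and muscle for Cmpk2.

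**Figure D1:**
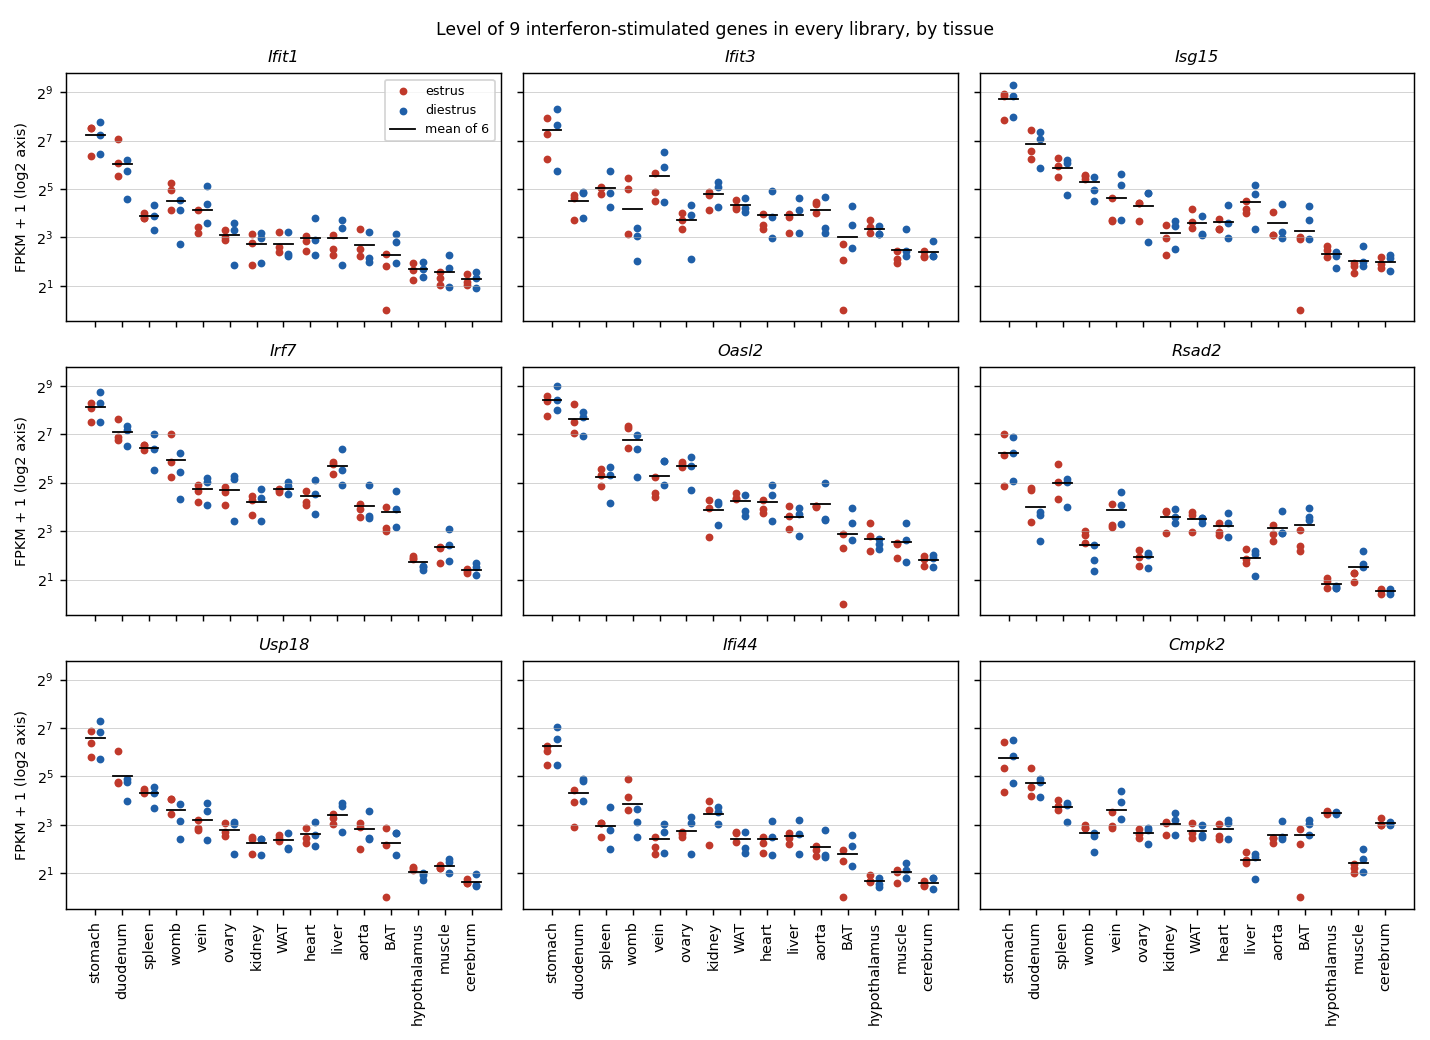
FPKM + 1 on a log2 axis for each of the 9 genes in every library, with tissues ordered by the mean over the genes, estrus in red, diestrus in blue and a bar at the mean of the 6 libraries of a tissue. Stomach (7.06 in the mean over the genes) stands at the left end in all 9 panels, cerebrum (1.52) has the lowest mean in all but the panel of Cmpk2, and the points at 0 FPKM in BAT belong to estrus replicate 3.

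Isg15 and Usp18 act on the same modification. Isg15 encodes a small ubiquitin-like protein that is attached to other proteins, and Usp18 encodes the protease that removes it and also dampens signalling at Ifnar2. In stomach Isg15 stood at 227, 486 and 462 FPKM in the estrus libraries 1, 2 and 3 and at 249.9, 460.5 and 636 FPKM in the diestrus libraries, a mean of 420.2 ± 155 (SD, n = 6). In cerebrum it stood at 2.37, 3.5 and 2.76 FPKM in estrus and at 2.08, 3.4 and 3.89 FPKM in diestrus. The means of stomach and cerebrum differed 140.0-fold, with duodenum next to stomach at 116 ± 48.3 FPKM. Usp18 reached 55.0, 116 and 83.3 FPKM in the estrus and 51.8, 114 and 155 FPKM in the diestrus libraries of stomach, a mean of 95.9 ± 40.02. In cerebrum it stayed between 0.39 and 0.95 FPKM, under the mean of 1 FPKM needed for a test of the phases. For both genes the replicates numbered 1 were the low ones of stomach in each phase.

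Irf7 encodes the transcription factor that amplifies interferon production once it has been induced. Its stomach libraries held 183, 315 and 268 FPKM in estrus and 181, 313 and 424 FPKM in diestrus, a mean of 281 ± 92.1. Its cerebrum libraries held 1.68, 1.57 and 1.4 FPKM in estrus and 1.28, 1.84 and 2.2 FPKM in diestrus, 169-fold lower in the mean. Liver, at 51.1 ± 18.5 FPKM, came directly after stomach, duodenum, spleen and uterus in the order of tissues for Irf7, as it did for Usp18.

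Ifit1 and Ifit3 encode proteins with tetratricopeptide repeats that bind viral RNA and one another. Ifit1 was at 82.2, 181 and 181 FPKM in the estrus and 87.1, 149 and 214 FPKM in the diestrus libraries of stomach, with a mean of 149 ± 54.0, and between 0.89 and 1.95 FPKM in cerebrum. Ifit3 was at 73.8, 241 and 156 FPKM in estrus and 51.9, 199 and 315 FPKM in diestrus in stomach, with a mean of 173 ± 100.3, and between 3.62 and 6.27 FPKM in cerebrum. The tissue with the mean nearest to stomach was duodenum for Ifit1, at 64.6 ± 36.8 FPKM, but vein for Ifit3, at 44.98 ± 27.2 FPKM. Ifit3 has a near-identical copy, Ifit3b, whose mean in stomach was 70.1 FPKM, so the split of the reads between them is uncertain.

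Oasl2 and Rsad2 encode antiviral effectors, an oligoadenylate synthetase-like protein and viperin, an enzyme that turns a nucleotide into a chain terminator of viral RNA synthesis. Oasl2 had 215, 377 and 334 FPKM in the estrus and 253, 342 and 506 FPKM in the diestrus libraries of stomach, a mean of 338 ± 102. Its lowest tissue, cerebrum, lay between 1.9 and 3.05 FPKM, and its level in uterus was high, at 107 ± 47.6 FPKM. Rsad2 had 28.4, 127 and 68.9 FPKM in estrus and 32.8, 73.0 and 118 FPKM in diestrus in stomach, a mean of 74.7 ± 41.4. Spleen followed stomach for Rsad2, at 31.0 ± 13.4 FPKM, and cerebrum lay between 0.33 and 0.53 FPKM.

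Cmpk2 encodes a nucleotide kinase of mitochondria, and Ifi44 an interferon-induced cytoplasmic protein. Cmpk2 reached 19.6, 84.7 and 39.96 FPKM in the estrus and 25.7, 57.0 and 91.1 FPKM in the diestrus libraries of stomach, a mean of 53.0 ± 30.02. Its lowest tissue was muscle, with 1.59, 1.35 and 0.99 FPKM in estrus and 1.09, 2.02 and 2.96 FPKM in diestrus. Cmpk2 had a narrower range over tissues than the other genes, 31.8-fold between stomach and muscle. Hypothalamus and cerebrum held 10.3 ± 0.353 and 7.45 ± 0.703 FPKM of Cmpk2. Ifi44 had 43.5, 75.3 and 64.8 FPKM in estrus and 42.9, 93.4 and 132 FPKM in diestrus in stomach, and between 0.27 and 0.74 FPKM in cerebrum. The mean of Ifi44 in stomach, 75.3 ± 33.8 FPKM, was 4.01-fold that in duodenum, the widest gap of a first to a next tissue among the 9 genes.

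Neighbours in the order of tissues were compared with an exact permutation test, two-sided, of 6 libraries against 6, for the 14 neighbouring pairs of each gene. The order came from the same libraries, so which tissues were paired, and which stood higher, was taken from the values tested. No pair passed after Benjamini-Hochberg adjustment, where the smallest adjusted p of the exact test was 0.0682, and 29 pairs had an unadjusted p under 0.05. The smallest p this exact test can give is 0.00216, and 4 pairs reached it, while 6 were needed to pass. Those 4 pairs were stomach above duodenum for Isg15 and Ifi44, duodenum above spleen for Cmpk2 and hypothalamus above cerebrum for Rsad2. Without BAT estrus replicate 3 the order changed, 6 pairs reached the smallest p, and these 6 passed at an adjusted exact p of 0.0455, among them stomach above duodenum for Isg15 and Ifi44. Stomach stood above the next tissue at an unadjusted exact p under 0.05 for 8 of the 9 genes, and Cmpk2 gave 0.0606. This test takes the libraries of different tissues as independent, although the study dissected all tissues from the same mice. When libraries were matched by phase and replicate number, a comparison added after the data were seen, the higher tissue stood above the lower in all 6 matched libraries in 27 pairs. The pairs and their direction again came from the same values. Stomach was above the next tissue in all 6 for 8 genes, Oasl2, Usp18 and Irf7 over duodenum among them, and in 5 of 6 for Cmpk2. The smallest p of this exact test over the signs of 6 differences is 0.0312, the smallest adjusted exact p was 0.146, and no pair could pass unless 79 reached the smallest p.

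The interferons themselves were near or at 0 in most libraries. Of 11 ligands listed, Ifnb1, the gene of interferon beta, was at 0 in 83 of 90 libraries, Ifnl2 in 81 and Ifnl3, a lambda gene, in 74. In stomach Ifnb1 stood at 0.08, 0.86 and 0.17 FPKM in the estrus and at 0, 0.71 and 1.18 FPKM in the diestrus libraries. Ifnl3 stood there at 0.83, 2.28 and 2.95 FPKM in estrus and at 0.32, 2.12 and 2.49 FPKM in diestrus. Ifnl2, a near-identical gene with which it can share reads, stood at 0.34, 2.68 and 1.47 FPKM in estrus and at 0, 2.21 and 2.67 FPKM in diestrus. Estrus replicate 1 and diestrus replicate 1 thus had the lowest values of both lambda genes and of Ifnb1 among the 6 stomach libraries, and they also had the lowest means over the 9 genes, 6.25 and 6.29 against 7.11 to 7.87 in the other 4. Outside stomach the mean of Ifnl3 was at most 0.327 FPKM, in ovary. Ifne, an interferon of reproductive epithelium, had its highest mean in uterus, with 33.5, 0.59 and 5.58 FPKM in estrus and 1.15, 2.65 and 1.03 FPKM in diestrus, and was at 0 in 75 libraries. Ifng, the gene of interferon gamma, was highest in spleen, at 1.56 ± 0.589 FPKM. In stomach Ifng stood at 0.15, 1.07 and 0.21 FPKM in estrus and at 1.09, 0.98 and 3.2 FPKM in diestrus. Diestrus replicate 1 was thus not among the lowest stomach libraries for Ifng. Values of this size rest on few reads, and whether the ligands account for the levels of the 9 genes was not tested.

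**Figure D2:**
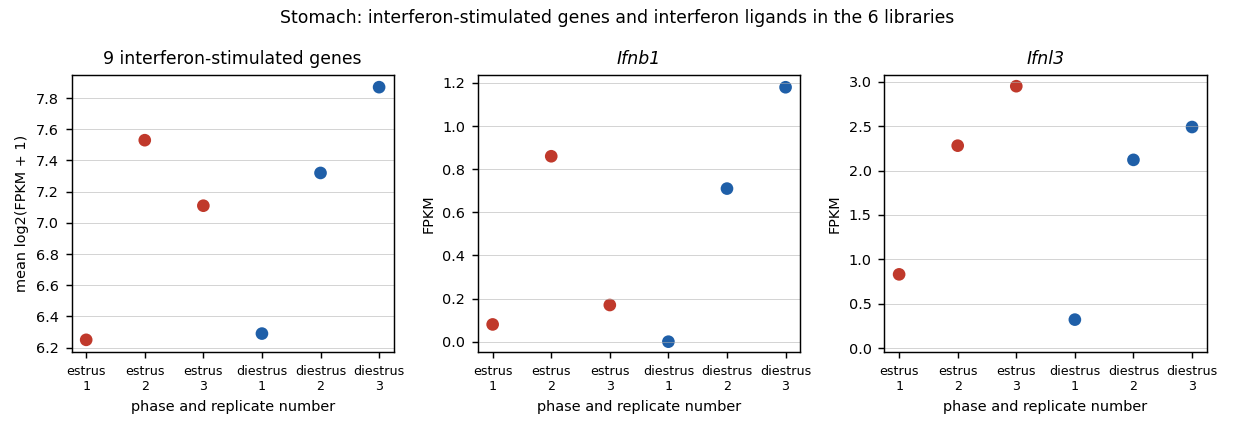
Values of the 6 stomach libraries, estrus in red and diestrus in blue, for the mean log2(FPKM + 1) of the 9 genes, and for Ifnb1 and Ifnl3 in FPKM. The libraries numbered 1 of each phase are the lowest in all 3 panels, at 6.25 and 6.29 for the 9 genes, 0.08 and 0 FPKM for Ifnb1 and 0.83 and 0.32 FPKM for Ifnl3; the first panel's axis does not start at 0.

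Markers of immune cells did not follow the same order of tissues. The summed markers of T cells, B cells, macrophages and neutrophils and the leukocyte gene Ptprc were highest in spleen. Ptprc stood there at 236 to 290.0 FPKM, against 2.63 to 4.24 FPKM in stomach. The summed NK cell markers were highest in duodenum, at a mean of 99.3 FPKM, against 20.5 FPKM in spleen and 3.4 FPKM in stomach. Across the 15 tissue means, Pearson's r between the markers and the 9 genes was 0.16 for macrophages, 0.59 for T cells, 0.4 for B cells, 0.64 for NK cells, 0.45 for neutrophils, 0.53 for Ptprc, -0.14 for endothelium and -0.09 for a list for plasmacytoid dendritic cells. The sum of the last list was 4110 FPKM in heart and 4020 FPKM in kidney but 47.9 FPKM in spleen. It rested on Cox6a2, a mitochondrial subunit of striated muscle, in heart (4108 FPKM) and on Klk1, a kallikrein, in kidney (4015 FPKM), so its r is not a measure of these cells. Among deviations of 89 libraries from the mean of their tissue and phase, r was between -0.11 and 0.27 for these lists. Marker sums also differed between libraries of one tissue, as for B cells in vein (3.55 to 173 FPKM), so these are descriptions.

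The question of the study's design, how estrus and diestrus differ in each tissue, was put to each gene with limma on the 6 libraries of a tissue. Of the pairs of a gene and a tissue, 130 reached a mean of 1 FPKM and were tested. The 5 others were Rsad2, Usp18 and Ifi44 in cerebrum and Rsad2 and Ifi44 in hypothalamus. A call required an absolute log2 fold change of 1 or more together with a limma adjusted p no larger than 0.05. No pair met both limits, and the smallest adjusted p was 0.14. Over all genes the same rule called 2 of 185469 pairs, or 0.00108%. At an unadjusted p under 0.05, 5 pairs were higher in estrus, against 2.91% of all pairs, and 4 were lower, against 4.93%. The phases did not overlap in 6 pairs, a smaller share than the 15.0% over all genes. With 3 libraries against 3, an exact permutation test of a single pair cannot go below 0.1.

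**Figure D3:**
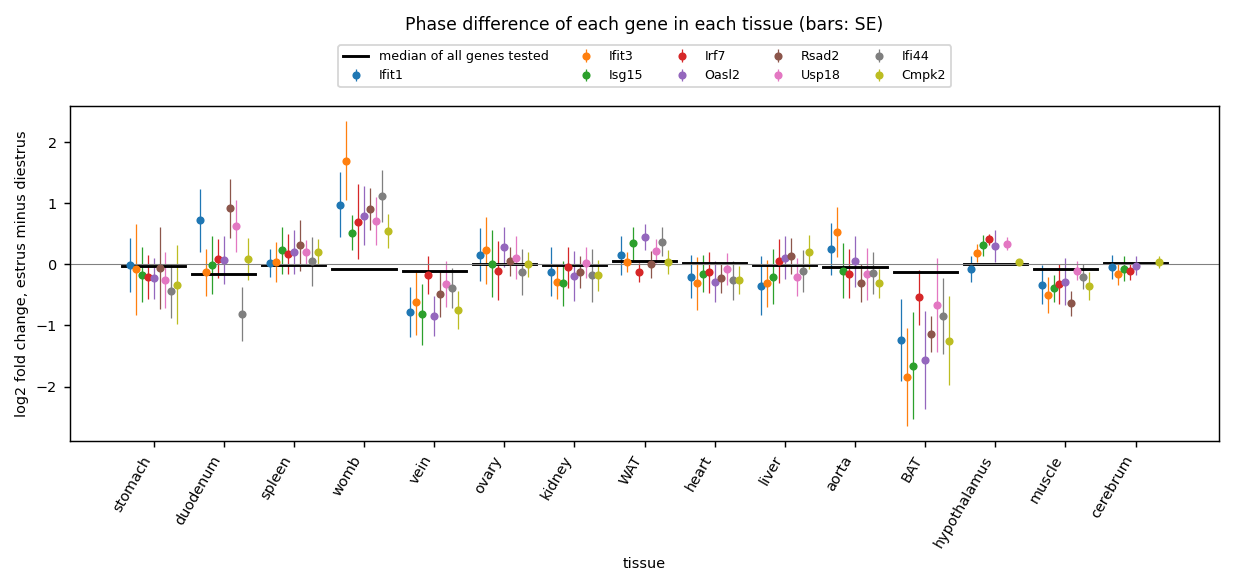
Log2 fold change, estrus minus diestrus, of each gene in each tissue with its SE, beside a black bar at the median of all genes tested in the tissue. All 9 points lie above 0 in womb (the uterus, median 0.8) and spleen (median 0.2), and all 9 below 0 in BAT (median -1.24), vein (-0.62), muscle (-0.33), heart (-0.23) and stomach (-0.21, where 1 gene lies above 0 on a median-of-ratios scale), none of them past the limits of a call.

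In uterus all 9 genes had values above 0, from 0.52 for Isg15 to 1.7 for Ifit3, with a median of 0.8 beside -0.07 over all genes. Ifit3 stood at 42.7, 7.78 and 30.8 FPKM in estrus and at 3.02, 7.39 and 9.48 FPKM in diestrus, a log2 fold change of 1.7 ± 0.65 (SE) with a limma adjusted p of 0.897. Estrus replicates 1 and 3 were above all diestrus libraries, and estrus replicate 2 was among them. Irf7, with 128, 36.9 and 57.4 FPKM in estrus and 19.3, 74.6 and 42.3 FPKM in diestrus, gave 0.7 ± 0.61 at the same adjusted p from limma. Usp18 gave 0.71 ± 0.4 from 15.6, 9.9 and 15.7 FPKM in estrus and 4.31, 13.4 and 8.04 FPKM in diestrus. Ifi44 gave 1.12 ± 0.43 from 28.4, 11.2 and 16.8 FPKM in estrus and 4.6, 11.6 and 7.79 FPKM in diestrus. The value of Irf7 ranged from 0.2 to 1.15 with one library left out, the lowest being without diestrus replicate 1 and the highest without diestrus replicate 2, and leaving out estrus replicate 1 gave 0.22. The value of Usp18 came to 0.34 when diestrus replicate 1 was set aside. Diestrus replicate 1 was the lowest of the 6 libraries for each of these genes, and the limma adjusted p was 0.897 for all 9 genes. Only Rsad2 and Cmpk2 had no overlap in uterus, where 3.24% of all genes did not overlap with estrus higher. Rsad2 stood at 6.06, 4.76 and 6.92 FPKM in estrus and at 1.57, 4.41 and 2.5 FPKM in diestrus, and Cmpk2 at 6.25, 6.39 and 6.92 against 2.66, 5.37 and 4.74 FPKM. With any single library left out, all 9 values stayed above 0 and their median lay between 0.34 and 1.19, at 0.34 without diestrus replicate 1. The summed macrophage markers stood at 344, 116 and 91.7 FPKM in estrus and at 119, 104 and 167 FPKM in diestrus, overlapping between the phases. Summed, the 4 neutrophil markers were higher in estrus without overlap (12.3, 12.6 and 114 against 6.48, 7.11 and 5.03 FPKM). The sum of the 3 NK cell markers was lower in estrus, at 0.79 to 1.86 against 2.35 to 4.98 FPKM. The part of these markers in the values of the 9 genes was not tested.

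In BAT all 9 genes had values below 0, but these moved with the shallow library. Ifit3 stood at 3.22, 5.59 and 0 FPKM in estrus and at 4.84, 10.3 and 18.4 FPKM in diestrus, a log2 fold change of -1.84 ± 0.8 with a limma adjusted p of 0.407. Isg15 gave -1.66 ± 0.88 from 6.66, 7.07 and 0 FPKM in estrus and 6.7, 12.1 and 18.4 FPKM in diestrus. Both genes were at 0 in estrus replicate 3 and overlapped between the phases in the rest. Ifit1 gave -1.24 ± 0.67 from 2.56, 3.92 and 0 FPKM in estrus and 2.79, 5.97 and 7.73 FPKM in diestrus. Oasl2 gave -1.57 ± 0.8 from 3.96, 6.28 and 0 FPKM in estrus and 5.13, 8.98 and 14.4 FPKM in diestrus. Cmpk2 gave -1.25 ± 0.73 from 3.62, 6.04 and 0 FPKM in estrus and 4.97, 7.1 and 8.12 FPKM in diestrus. These genes, too, overlapped once the shallow library was set aside. Rsad2, with 4.16, 7.32 and 3.53 FPKM in estrus and 10.1, 11.1 and 14.5 FPKM in diestrus, was the sole gene without overlap, where 18.1% of all genes in BAT did not overlap with estrus lower. The 3.53 FPKM is the value of the shallow library and rests on few reads. The log2 fold change of Rsad2 was -1.14 ± 0.29 with a limma adjusted p of 0.229. Without estrus replicate 3 it was -0.96 with a limma adjusted p of 0.0705, while Ifit3 came to -1.04, Isg15 to -0.67, Oasl2 to -0.71, Ifit1 to -0.55 and Cmpk2 to -0.42, and the median over the 9 genes to -0.55. The sum of the 4 endothelial markers was also lower in estrus without overlap, at 151, 174 and 139 against 208, 224 and 249 FPKM. It was lower in estrus replicates 1 and 2 as well as in the shallow library. The sum of the 3 NK cell markers was lower too, at 0 to 0.7 against 0.9 to 1.91 FPKM. The part of either list in the values of the 9 genes was not tested.

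In hypothalamus 6 of 7 tested genes were above 0, with a median of 0.3. Irf7 held 2.58, 2.75 and 2.9 FPKM in estrus and 1.62, 1.89 and 1.97 FPKM in diestrus, a log2 fold change of 0.41 ± 0.09 with a limma adjusted p of 0.226. Usp18 held 1.32, 1.4 and 1.21 FPKM in estrus and 0.63, 0.88 and 0.99 FPKM in diestrus, 0.34 ± 0.11 with a limma adjusted p of 0.29. Both were without overlap, as were 9.96% of all genes there with estrus higher. In muscle Rsad2 held 1.4, 1.38 and 0.86 FPKM in estrus and 2.08, 1.87 and 3.55 FPKM in diestrus, -0.64 ± 0.2 with a limma adjusted p of 0.14, without overlap, as were 21.9% of all genes there with estrus lower. The summed endothelial markers of muscle were lower in estrus without overlap as well, at 67.4, 56.6 and 45.1 FPKM against 72.6, 77.8 and 75.5 FPKM, and T cell and neutrophil markers, at most 1.61 and 0.55 FPKM, were higher. In vein Oasl2 (-0.84 ± 0.33) and Cmpk2 (-0.75 ± 0.31) had an unadjusted p under 0.05 and a limma adjusted p of 0.412, with overlap of the phases. Summed endothelial markers of vein were lower in estrus, at 298, 230 and 289 FPKM against 324, 396 and 299 FPKM, without overlap. The part of these markers in the values of muscle and vein was not tested. The vein library of estrus replicate 3 held summed B cell markers of 173 FPKM and T cell markers of 128 FPKM, against at most 5.79 and 14.2 FPKM in the other 5, and the 9 genes in that library lay -0.42 from the tissue mean.

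The sign of the median over the 9 genes was above 0 in 6 tissues and below 0 in 9. In 9 tissues, namely aorta, cerebrum, duodenum, heart, kidney, liver, ovary, spleen and stomach, it turned when one library was left out. On a scale set by median-of-ratios factors no tissue median changed its sign, and the median moved from 0.09 to 0.27 in duodenum, from -0.62 to -0.51 in vein and from 0.8 to 0.9 in uterus. In spleen, where all 9 genes were above 0, the median of 0.2 came to -0.22 without diestrus replicate 1. Summed neutrophil markers of spleen were higher in estrus without overlap, at 258 to 794 FPKM against 109 to 173 FPKM. Their part in the values there was not tested. A test of whether the phase difference varies between tissues, the limma F test in one fit of all 90 libraries, passed for none of the 9 genes and for 3.88% of all 15226 genes, and the smallest adjusted p of this limma test was 0.284, for Rsad2. When the libraries of all tissues shared one estimate of the spread, limma called 6 pairs. They were Cmpk2, Ifit3, Isg15, Oasl2 and Rsad2 lower in BAT, where the same fit called 8.89% of all genes, and Ifit3 higher in uterus, where it called 3.16% with estrus higher. With BAT estrus replicate 3 left out of that fit, Ifit3 in uterus alone was called, with a limma adjusted p of 0.0202. The share of all genes called in uterus without that library was not counted. In the fit of uterus alone the limma adjusted p of Ifit3 was 0.897, and its highest uterus library held 14.1 times its lowest.

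Within a phase, the 3 libraries of a tissue stood in an order that recurred across tissues. Diestrus replicate 1 was the lowest of the 3 diestrus libraries in 116 gene-tissue pairs, or 85.9% of the pairs of the 9 genes with the 15 tissues, against 31.0% over all gene-tissue pairs. Diestrus replicate 3 was the highest in 97 pairs, or 71.9%, against 31.6% over all. For Irf7, diestrus replicate 1 was lowest in 13 and diestrus replicate 3 highest in 14 of the 15 tissues. WAT went the other way, with none of the 9 genes lowest in diestrus replicate 1, and in aorta diestrus replicate 2 was the lowest for 7 genes. In estrus the order was weaker, with replicate 2 highest in 80 pairs (59.3%, against 27.9% over all) and replicate 3 lowest in 70 (51.9%, against 34.7%). The 70 include BAT, where the shallow estrus replicate 3 was the lowest for 8 genes.

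Over the 14 tissues other than BAT, the mean deviation of the 9 genes from the tissue mean was -0.55 in diestrus replicate 1, which lay below 0 in 13 of 14 tissues. It was 0.15 in diestrus replicate 2 and 0.39 in diestrus replicate 3. It was 0.01, 0.14 and -0.15 in estrus replicates 1, 2 and 3. In uterus diestrus replicate 1 lay at -1.19 and in ovary at -0.96, whereas in WAT it lay at 0.28.

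**Figure D4:**
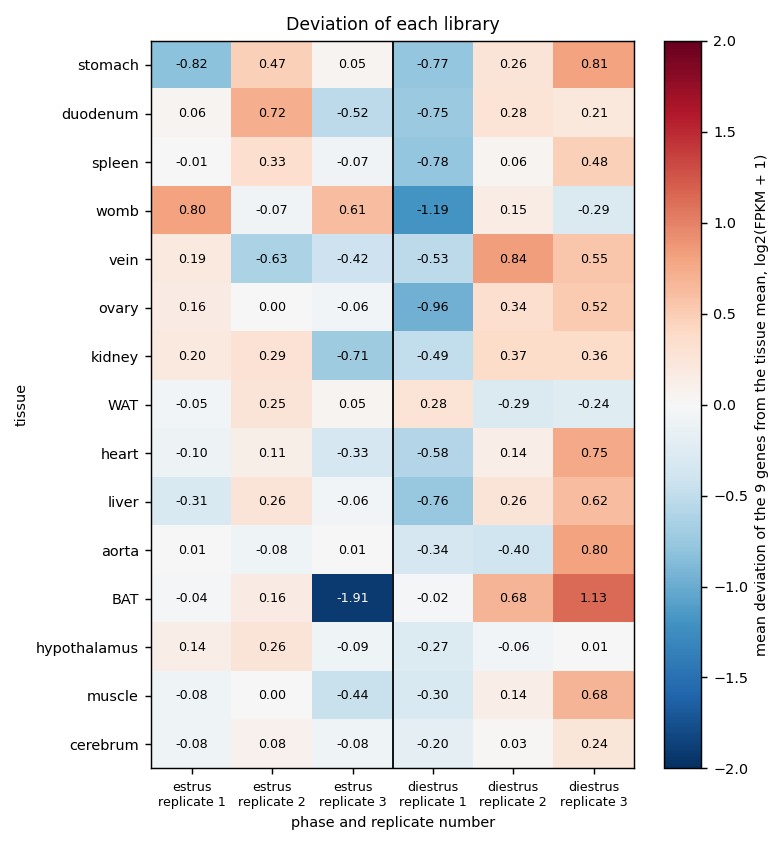
Mean deviation of the 9 genes from the mean of the 6 libraries of the tissue, in log2(FPKM + 1), for each tissue (rows) and each phase and replicate number (columns), red above and blue below 0. The column of diestrus replicate 1 is below 0 in every tissue but WAT, where it is 0.28, and BAT estrus replicate 3 (-1.91) is the shallow library.

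For each gene, the variation among libraries within a tissue and phase was split into a part that follows phase and replicate number across the 14 tissues and the rest. The part that follows phase and number was 54.3% for Irf7, 51.5% for Isg15, 50.25% for Oasl2, 47.45% for Ifi44, 46.0% for Ifit3, 44.96% for Ifit1, 42.9% for Usp18, 40.2% for Cmpk2 and 35.2% for Rsad2. The median over 15226 genes was 8.43%, and only 0.617% of genes had a share as large as that of Rsad2. Irf7 had the largest share of all genes. Among the other genes of the pathway, the median share was 29.5% in 38 further type I interferon-stimulated genes, 32.0% in 22 genes of the interferon-gamma response and 10.1% in 12 receptors and signal transducers. It was 21.9% in 11 sensors and adaptors, 22.6% in 7 inhibitors and 10.6% in 5 regulatory factors. Among cell markers it was 10.3% for macrophage, 6.49% for T cell, 10.2% for B cell and 9.39% for endothelial markers. For neutrophil markers it was 9.58%, for the list for plasmacytoid dendritic cells 6.78% and for Ptprc 10.2%. The 1 NK cell marker counted had a share of 16.5%. Approximate reads had a median of 15.6M in diestrus replicate 1, 14.8M in diestrus replicate 2 and 15.5M in diestrus replicate 3. Across 84 libraries, deviations in log2 reads and in the 9 genes had an r of -0.21. The part of depth in the order of the libraries was not tested. What libraries of one number have in common across tissues is not given in the labels and was not tested.

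**Figure D5:**
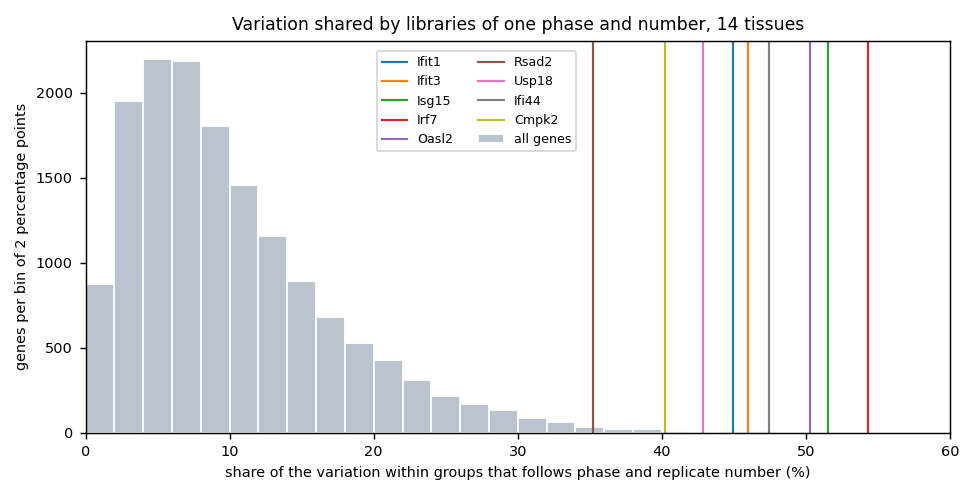
Share of the variation within tissue and phase that follows phase and replicate number over 14 tissues, in percent, as a histogram of all 15226 genes (grey) with a line for each of the 9 genes. The median of all genes is 8.43%, and the 9 lines lie between 35.2% (Rsad2) and 54.3% (Irf7).

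The 9 genes were close to each other over both axes. Over the 15 tissue means, the 36 pairs among them had a Pearson r of 0.55 to 0.99, with a median of 0.83. Over the deviations of 89 libraries from their tissue and phase, r was 0.63 to 0.92, with a median of 0.8. The points share libraries and depth, so these are descriptions. Within a tissue, the highest library held 1.09 to 14.1 times the FPKM of the lowest, BAT aside, and the widest ratio was that of Ifit3 in uterus.

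The 10 genes most like the mean of the 9 over the tissue means, of 15217 compared, were Galnt4 and Oas1a (r = 0.968 each), Ifih1 (0.955), Oasl1 (0.946), Zbp1 (0.939), Nmi (0.936), Klf3 (0.935), Ddx60 (0.931), Lgals3bp (0.929) and Dhx58 (0.928). The first of these, Galnt4, encodes an enzyme of mucin-type glycosylation, and Klf3 a zinc finger factor, and neither was in the pathway lists, which held the other 8. Over the deviations of 89 libraries they were Parp14 (0.892), Trim30a (0.883), Rnf213 (0.88), Rtp4 (0.874), Xaf1 (0.872), Ifit3b (0.863), Oas1a (0.856), Stat2 (0.856), Herc6 (0.855) and Phf11d (0.855), of which all but Rnf213 were in the lists. Oas1a was on both lists of likeness.

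The 7 lists of the wider pathway held 110 genes, of which 107 were in the table, and 1301 gene-tissue pairs were tested. None was called within a tissue, 29 had an unadjusted limma p under 0.05 with estrus higher and 40 with estrus lower. Both are smaller shares than the 2.91% and 4.93% over all gene-tissue pairs. Of 11 sensors and adaptors of nucleic acid, 6 had their highest mean in stomach. Zbp1, a sensor of left-handed nucleic acid, reached 112 ± 37.9 FPKM there, whereas Mavs, the adaptor of the RNA sensors, was highest in BAT at 42.8 ± 5.31 FPKM. Among 12 receptors and signal transducers only Stat2 was highest in stomach, at 65.5 ± 18.4 FPKM. The receptor genes Ifnar2 and Ifngr2 were highest in BAT, at 143 ± 9.59 FPKM, and in heart, at 181 ± 5.22 FPKM. Of 5 regulatory factors, 4 were highest in spleen, among them Irf3 at 75.9 ± 4.31 FPKM, and Irf1 was highest in duodenum at 113 ± 19.8 FPKM. Of the inhibitors, Samhd1, which depletes nucleotides, was highest in spleen at 184 ± 15.4 FPKM and Usp25 in muscle at 39.0 ± 4.9 FPKM.

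Of the 39 further type I interferon-stimulated genes in the table, 21 were highest in stomach and 9 in spleen. The most abundant did not follow this order, since Ifitm3, which restricts viral entry at membranes, was highest in uterus at 1650.0 ± 451 FPKM and Ifi27l2a in WAT at 902 ± 429 FPKM. Of 22 genes of the interferon-gamma response, 11 were highest in spleen and 8 in stomach. By the mean over 90 libraries the immunoproteasome genes Psmb8 and Psmb9 led this list, at 48.9 and 44.5 FPKM, with their highest means in spleen (176 ± 13.5 FPKM) and duodenum (158 ± 33.1 FPKM). The highest mean of any gene of the list in one tissue was that of Igtp, a GTPase, in stomach, at 192 ± 131 FPKM. Over the deviations of libraries, the median r to the 9 genes was 0.74 for the type I list, 0.66 for the interferon-gamma list, 0.62 for the sensors, 0.24 for the receptors and transducers and 0.26 for the regulatory factors, beside -0.02 over all genes. Within the receptors and transducers, r was 0.86 for Stat2 and 0.83 for Irf9, which are themselves induced by interferon, and -0.01 for Jak1 and 0.16 for Ifnar1.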

How the data were processed

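Total RNA of 15 tissues was sequenced on BGISEQ-500, with 3 libraries per tissue and phase. Per the labels and the methods, the authors filtered reads with SOAPnuke, aligned them with Bowtie2 2.2.5 to GRCm38.p5 and estimated abundance with RSEM 1.2.8; the deposited table holds FPKM for 20414 genes, without counts. That the values are FPKM was judged from the methods and the values. Symbols came from RefSeq (GRCm38.p6) for 20265 genes. RSEM shares reads among near-identical copies, which touches Ifit3 and the lambda genes.

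Reads were approximated from the steps of 931 short genes; 52.4% to 74.1% of their values per library were whole to within 0.2 reads, so counts were not recovered. Phases were compared per tissue with limma 3.58.1 in R 4.3.3 on log2(FPKM + 1) with an intensity trend, for genes averaging 1 FPKM or more, adjusted by Benjamini-Hochberg within the tissue. The pseudocount of 1 understates the change of low genes. Fits were tested on simulated data. The other computations used Python 3.11.15, numpy 2.4.6, pandas 2.3.3, scipy 1.17.1 and matplotlib 3.10.9.

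The 9 genes and the pathway and marker lists were chosen with earlier results of these data known. All 9 are named; values per library are given for a gene's highest and lowest tissue and where its phase difference was largest, or had an unadjusted p under 0.05 without overlap. Of each pathway list the 2 genes of highest mean are named, with others chosen after their values were seen. Replicate numbers were checked as pairs of estrus and diestrus libraries: correlations of deviations ran from -0.522 to 0.44, in 0 of 15 tissues over 0.1 for all pairs, so no pairing was used. Whether libraries of a group come from separate mice is not in the labels, so p-values measure the spread between libraries. Alternatives covered the pseudocount, filter, scale, joint fits, a replicate block and single libraries left out. One item of the pathway lists is not reported here by itself.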

Additional observations from a re-analysis of the deposited data

How the results depend on the processing

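No gene-tissue pair of the 9 genes was called within a tissue with a pseudocount of 0.1, without the filter or the fold limit, on the median-of-ratios scale, with the replicate block (0 pairs), or with any library left out (0 to 0). One limma fit of all libraries called 6 pairs, and one fit of 89 libraries, added after the data were seen, called 1. For the wider pathway the count was 0 under the same alternatives and with any library left out (0 to 0), but 22 in one fit of all libraries, 17 of them in BAT, and 5 in one fit of 89 libraries. The fit of all libraries called 8.89% of all genes in BAT, and shares over all genes were not counted for the fit of 89. Both joint fits estimate one spread from all tissues, and 1 of the 2 leaves out the shallow library. No gene passed the tissue-by-phase test under any alternative run, including the replicate block and an added block of phase and number, where the smallest limma adjusted p was 0.061, for Ifit3. Tissues with a median above 0 numbered 5 to 7 with one library left out. Neighbouring tissues that differed numbered 0 with a pseudocount of 0.1 and 6 without BAT estrus replicate 3, and with libraries matched by phase and number, a replicate block added after the data were seen, they numbered 0. As single pairs, Rsad2, Ifit3, Isg15, Oasl2 and Cmpk2 in BAT passed in one fit of all libraries, with limma adjusted p of 0.0242, 0.012, 0.0146, 0.0122 and 0.0143, and under no other alternative run, where that of Rsad2 was 0.0705 to 0.757. Ifit3 in uterus passed in one fit of all libraries and in one fit of 89, with limma adjusted p of 0.0347 and 0.0202, and not under its other alternatives, where it was 0.185 to 1.0.

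The replicate numbers did not pair the phases. Within a phase, the correlation of deviations across all genes between libraries of different tissues averaged 0.0465 for the same number and -0.023 for different numbers. The 3 deviations of a group sum to 0, so the second value largely follows from the first and is not a separate comparison. Neighbours were not tested within one phase, since 3 against 3 cannot pass. Depth is approximate, and levels under about 1 FPKM rest on few reads.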
